A study of Mus musculus with 4 samples.

Results

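The Hedgehog genes described here were the 8 genes Dhh, Ihh, Ptch1, Smo, Gli1, Gli2, Gli3 and Hhip, chosen by name from the 32285 gene identifiers of the count matrices. They were followed through granulosa cell (GC) states, theca cells, clusters led by genes such as Enpep and Asb4, and stromal cells of mouse ovaries. There were 4 single-cell RNA-seq libraries (10x Genomics, 3′ v3), each from ovaries of 8-week-old females, 2 from Fosl2flox/flox mice (Fosl2F/F) and 2 from Cyp19a1-Cre; Fosl2flox/flox littermates (Fosl2cKO). Both groups therefore carried the floxed Fosl2 alleles, and they differed in the Cre transgene. The Cyp19a1 promoter drives Cre in GCs that express aromatase, so theca and stromal cells were not where deletion was aimed. The comparison between the groups asks whether loss of Fosl2, a subunit of the AP-1 transcription factor, in GCs goes with other levels of Hedgehog ligands in GCs or of the receiving genes in the cells around them. By vaginal cytology the mice were in estrus. For the ovaries isolated n = 2 per group is given, as many as there were libraries, but no source used here ties each library to 1 animal, so p-values measure only the spread between libraries.

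Hedgehog signalling passes a message from one cell to a neighbour. A secreted ligand, in the ovary mainly Indian hedgehog (Ihh) and desert hedgehog (Dhh) from GCs, binds the receptor Patched 1 (Ptch1), which otherwise holds the membrane protein Smoothened (Smo) inactive. Active Smo, at the primary cilium, changes the transcription factors Gli1, Gli2 and Gli3, of which Gli2 and Gli3 carry the first response and Gli3 often acts as a repressor, and Gli1 is itself switched on. Ptch1, Gli1 and the ligand-binding Hedgehog-interacting protein (Hhip) are transcriptional targets of the pathway in many tissues, so their RNA is commonly used as a readout of a responding cell. In the ovary, the ligands made inside the follicle are known to act on the mesenchymal cells outside the basement membrane that become the steroid-producing theca.

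The ligand gene Ihh (ENSMUSG00000006538) lies at chr1:74945315-74951672 and Dhh (ENSMUSG00000023000) at chr15:98891152-98898540, both on the minus strand of GRCm38 with GENCODE M21 annotation. Ptch1 (ENSMUSG00000021466) spans chr13:63508328-63573598 on the minus strand, and Smo (ENSMUSG00000001761) chr6:29735503-29761365 on the plus strand. Hhip (ENSMUSG00000064325) spans chr8:79965851-80058006 and Gli1 (ENSMUSG00000025407) chr10:127329882-127341974, both on the minus strand. Gli2 (ENSMUSG00000048402) spans chr1:118834132-119053619 on the minus strand and Gli3 (ENSMUSG00000021318) chr13:15463235-15730026 on the plus strand. All 8 are protein coding. Dhh shares 3389 bases of its span with Rhebl1 on the same strand, so reads there could be ambiguous between both genes.

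The 250 bases upstream of the annotated RefSeq start are shown for the ligands and for the target genes Ptch1 and Hhip, because the results below turn on these 4 genes. Each sequence is from GRCm38.p6, minus strand, written 5′ to 3′ with every CG pair in capitals.
Ihh, chr1:74951673-74951922: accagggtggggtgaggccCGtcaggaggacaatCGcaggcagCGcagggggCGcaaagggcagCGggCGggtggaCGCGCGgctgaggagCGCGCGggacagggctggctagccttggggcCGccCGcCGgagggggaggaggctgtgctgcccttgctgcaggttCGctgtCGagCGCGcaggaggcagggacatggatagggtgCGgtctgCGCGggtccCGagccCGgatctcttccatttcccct
Dhh, chr15:98898541-98898790: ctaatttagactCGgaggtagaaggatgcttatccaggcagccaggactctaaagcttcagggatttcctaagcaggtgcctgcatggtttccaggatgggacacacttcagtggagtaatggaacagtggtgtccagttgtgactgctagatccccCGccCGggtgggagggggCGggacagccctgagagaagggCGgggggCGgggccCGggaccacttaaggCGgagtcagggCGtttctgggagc
Ptch1, chr13:63565736-63565985: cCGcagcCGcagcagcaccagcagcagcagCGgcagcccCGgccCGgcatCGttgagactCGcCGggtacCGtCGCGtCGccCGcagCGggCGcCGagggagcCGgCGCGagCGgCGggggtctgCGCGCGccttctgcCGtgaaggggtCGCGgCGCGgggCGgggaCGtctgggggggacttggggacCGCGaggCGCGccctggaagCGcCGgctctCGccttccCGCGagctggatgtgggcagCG
Hhip, chr8:80058009-80058258: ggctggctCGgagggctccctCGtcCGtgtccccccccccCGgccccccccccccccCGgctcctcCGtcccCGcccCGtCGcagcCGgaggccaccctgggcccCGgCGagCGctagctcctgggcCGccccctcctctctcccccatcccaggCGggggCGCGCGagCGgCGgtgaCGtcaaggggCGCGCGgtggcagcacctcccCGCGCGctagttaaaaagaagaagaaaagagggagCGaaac
The Ptch1 window held 41 CG pairs, Hhip 28, Ihh 24 and Dhh 9, against a median of 6 over 32851 promoter windows, of which 1.09% held at least as many as Ptch1. Over the full windows of 300 bases, which include the first 50 transcribed bases and were available for 7 of the 8 members, neither strand held the Gli consensus GACCACCCA, which is present in 0.253% of all promoters, nor GACCNCCCA, present in 0.977% and including the former. The AP-1 motif TGANTCA, present in 7.81% of all promoters, was also without a match. These letters were searched in these windows only, and distal sites were not examined.

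The 4 libraries gave 41538 cells after filtering, with 104452744 to 111365033 unique molecular identifiers (UMIs, each standing for a captured RNA molecule) per library. Fosl2F/F replicate 2 stood apart, with 19575 cells at a median of 3654 UMIs, against 6760 to 8150 cells at medians of 11187 to 12479 UMIs in the others. Between 10 and 38 cell barcodes were shared by pairs of libraries. Fosl2 itself, which checks the labels, had 160.5 and 166.7 CPM (counts scaled by all UMIs of the class in a library) in Fosl2F/F GC-like cells and 167.0 and 115.0 CPM in those of the Fosl2cKO libraries, and did not pass the test (log2 fold change -0.25, adjusted p = 1.0). LoxP sites were placed around exons 2 and 4 of Fosl2, but where the second site lies relative to the counted 3′ end is not given in the sources used here. By immunoblot the paper reports depletion of Fosl2 protein in GCs of Fosl2cKO mice, which RNA counts do not measure. Because the RNA did not separate the groups, "the libraries labelled Fosl2cKO" is written below.

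Cells were clustered without the 8 Hedgehog genes and 38 further pathway genes, and clusters were named from marker genes. GC-like cells had a summed level of 12 granulosa markers of 9263 to 15963 CPM. In theca-like cells the 8 theca markers summed to 9427 to 18939 CPM, but Cyp17a1, which makes androgens and defines theca cells, was at 4515, 2480, 68.3 and 2174 CPM, the low value being that of Fosl2cKO replicate 1 with 145 theca-like cells. The summed theca markers were not particular to this class, and reached 16706 to 19110 CPM in the Abcb1b/Hao2 and 11559 to 18732 CPM in the Ces2a/Bhmt cluster described next. No class was named theca-stromal. Instead, 4 clusters were kept under their leading genes. They included the Enpep/Asb4 cluster of 4149 cells and the Enpep/Mki67 cluster of 834 cells with proliferation genes. The others were the Abcb1b/Hao2 cluster of 3640 cells and the Ces2a/Bhmt cluster of 1524 cells. The Enpep/Asb4 cluster had 4462 to 5991 CPM of the 9 stromal markers, against 7648 to 11037 CPM in stromal-like and 949 to 1316 CPM in theca-like cells. It had 395 to 936 CPM of the theca markers and 0.26 to 17.0 CPM of Cyp17a1. Macrophage-like cells had like levels, at 264 to 1060 and 1.13 to 11.4 CPM, so these values did not mark the cluster as theca. The stromal markers summed to 101 to 176 CPM in the Abcb1b/Hao2 and 66.1 to 205 CPM in the Ces2a/Bhmt cluster. The Ces2a/Bhmt cluster also had 3513 to 11941 CPM of 7 luteal markers, against 1199 to 2253 CPM in theca-like cells.

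Nearly all Ihh RNA was counted in GC-like cells. Its level there was 64.2 and 63.6 CPM in Fosl2F/F, with 64.0 and 87.9 CPM in the libraries labelled Fosl2cKO (69.9 ± 12.0, mean and SD of 4 libraries). Fosl2cKO replicate 2 was higher than the rest, which were nearly equal. GC-like cells held 96.2% ± 1.83 of all Ihh UMIs of a library. Every other class with at least 20 cells in each library averaged 5.95 CPM or less, and theca-like cells were at 1.91 ± 1.16, stromal-like cells at 2.43 ± 1.47 and the Enpep/Asb4 cluster at 1.83 ± 0.70 CPM, below the 3.73 ± 2.27 CPM of macrophage-like cells, a class not known to make Ihh.

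Dhh was also a GC transcript, although less exclusively. GC-like cells had 14.2 and 15.4 CPM in Fosl2F/F against 38.0 and 32.3 CPM in the libraries labelled Fosl2cKO, without overlap. They held 91.4% ± 5.24 of all Dhh UMIs. The next levels were in lymphatic endothelial-like cells, at 14.6 ± 17.4 CPM from 20 UMIs in all, and in endothelial-like cells, at 5.72, 12.8, 14.9 and 7.32 CPM. Theca-like cells were at 2.32 ± 0.70 and stromal-like cells at 0.65 ± 0.12 CPM. The third ligand gene, Shh, had 5 UMIs in all cells.

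**Figure D1:**
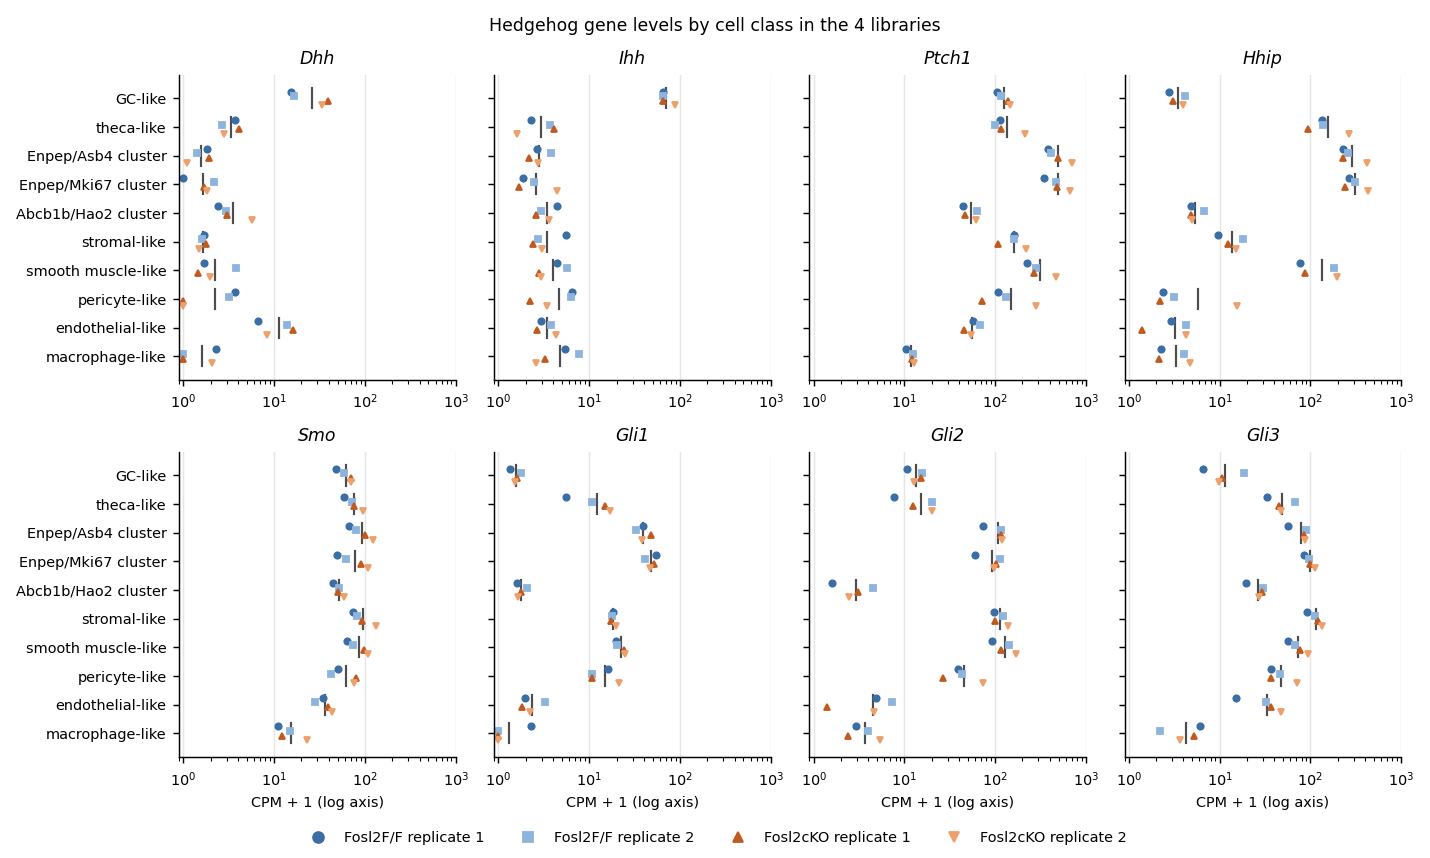
CPM + 1 of the 8 Hedgehog genes on a log axis in 10 cell classes, 1 point for each of the 4 libraries and a bar at their mean. Ihh and Dhh sit highest in GC-like cells, whereas Ptch1, Hhip and Gli1 sit highest in both Enpep clusters.

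The GC-like cells fell into 9 states when clustered by themselves, of which 7 were named. Ihh was lowest in atretic-like GCs, which express Ghr and Itih5, with 15.3 and 11.3 CPM in Fosl2F/F, with 10.05 and 28.0 CPM in the libraries labelled Fosl2cKO. It was highest in mitotic-like GCs with Inhbb, with 105, 93.0, 93.3 and 152 CPM in the same order. The other named states lay between 54.6 ± 14.6 CPM in cumulus-like and 81.1 ± 43.8 CPM in mural-like GCs, and their libraries overlapped with one another. In mural-like GCs, the outer cells of the antral follicle that carry the luteinizing hormone receptor, Ihh ranged from 38.5 CPM in Fosl2cKO replicate 1 to 142 CPM in Fosl2cKO replicate 2, so that the pair labelled Fosl2cKO spanned both Fosl2F/F values of 77.6 and 66.1 CPM.

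Each state was compared with the mean of the others by edgeR, with adjusted p below 0.05 and a change of more than 1 on the log2 scale. Of Ihh, only the fall in atretic-like GCs passed (log2 fold change -2.17, SE 0.21, adjusted p = 3.0e-10), where 12.5% of 14170 genes passed. The higher Ihh in mitotic-like GCs with Inhbb did not reach the minimum fold (0.95, SE 0.16, adjusted p = 1.1e-05), in a state where 7.38% of genes passed. It just passed among cells over 2000 UMIs (1.005), and it also passed among cells under 5% mitochondrial UMIs. Dhh was highest in mural-like GCs at 20.7, 21.1, 43.9 and 56.2 CPM and lowest in atretic-like GCs at 5.89, 9.33, 19.2 and 23.1 CPM. Neither difference reached the minimum fold (0.62, SE 0.14 and -0.87, SE 0.16), and 9.7% of genes passed in the mural-like state.

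**Figure D2:**
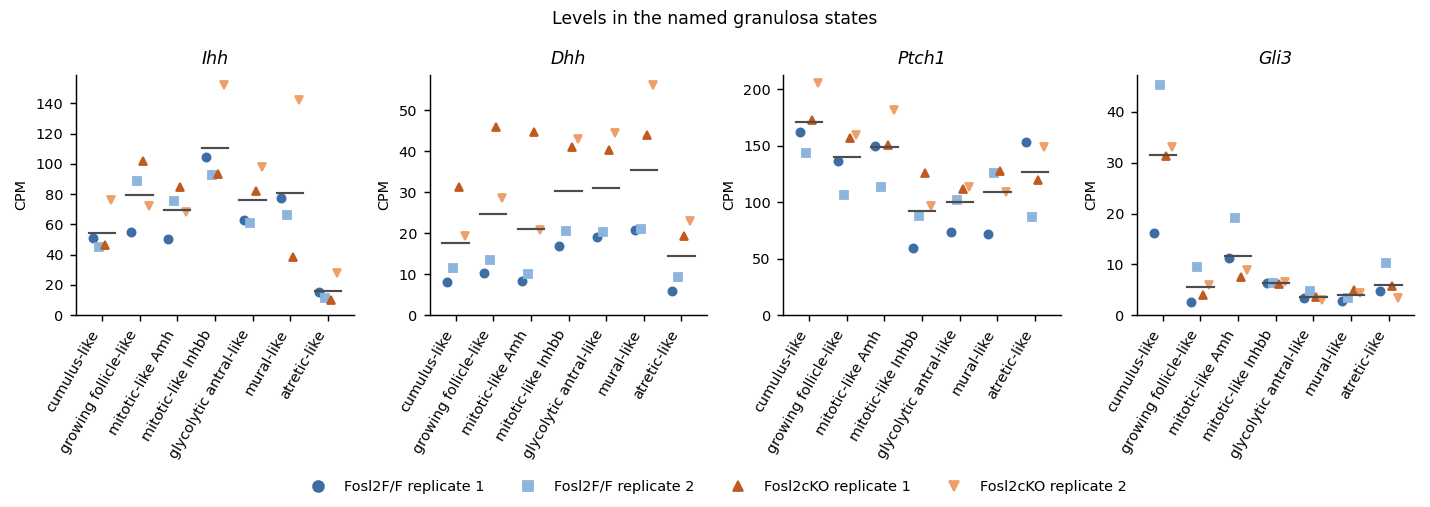
CPM of Ihh, Dhh, Ptch1 and Gli3 in the 7 named GC states, 1 point per library and a bar at the mean. Ihh is low in atretic-like GCs, Dhh is higher in both libraries labelled Fosl2cKO than in both Fosl2F/F libraries in each state, and Gli3 is highest in cumulus-like GCs.

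Ptch1, the receptor and a common target of the pathway, peaked outside the follicle's GCs. The Enpep/Asb4 cluster had 381 and 412 CPM in Fosl2F/F, with 489 and 696 CPM in the libraries labelled Fosl2cKO, and the Enpep/Mki67 cluster had 347, 470, 481 and 665 CPM. These 2 clusters overlapped. Smooth muscle-like cells, at 309 ± 110 CPM, were below both in each of the 4 libraries, and below them stromal-like (161 ± 45.3 CPM), pericyte-like (148 ± 93.9 CPM), theca-like (135 ± 53.8 CPM) and GC-like cells (125 ± 19.3 CPM) could not be ordered. GC-like cells held 40.5% ± 13.1 of all Ptch1 UMIs. Of the UMIs of all genes they held 71671926 of 108017236 and 38526168 of 104452744 in Fosl2F/F replicates 1 and 2. In replicates 1 and 2 labelled Fosl2cKO they held 49947314 of 111365033 and 48725348 of 105327270. Macrophage-like cells had 10.96 ± 1.04 CPM.

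Hhip was more restricted than Ptch1. It had 226, 258, 227 and 425 CPM in the Enpep/Asb4 cluster and 266, 306, 240 and 433 CPM in the Enpep/Mki67 cluster, always with Fosl2cKO replicate 2 highest. Theca-like cells followed with 134, 138, 93.6 and 263 CPM, and smooth muscle-like cells with 75.5, 183, 85.4 and 197 CPM. Stromal-like cells had 12.9 ± 3.67 CPM and GC-like cells 2.49 ± 0.65 CPM, the latter near the 2.30 ± 1.31 CPM of macrophage-like cells. In all, 51.2% ± 6.46 of Hhip UMIs came from the Enpep/Asb4 cluster, 19.1% ± 4.74 from the Enpep/Mki67 cluster and 16.5% ± 6.35 from theca-like cells.

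Gli1, whose RNA depends on pathway activity in many tissues, followed the same clusters at low counts. The Enpep/Asb4 cluster had 37.7, 32.0, 46.8 and 37.0 CPM and the Enpep/Mki67 cluster 52.8, 40.3, 50.4 and 45.2 CPM. Smooth muscle-like cells (21.3 ± 2.69 CPM) and stromal-like cells (17.3 ± 1.17 CPM) lay below both in every library. Theca-like cells had 4.56 and 9.65 CPM in Fosl2F/F, with 14.1 and 16.0 CPM in the libraries labelled Fosl2cKO. In GC-like cells Gli1 was at 0.55 ± 0.17 CPM from 108 UMIs, and in the Abcb1b/Hao2 cluster, which expresses the steroidogenic gene Star, at 0.775 ± 0.204 CPM. That cluster also had only 4.31 ± 0.92 CPM of Hhip and 52.8 ± 9.88 CPM of Ptch1.

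Gli2 and Gli3 were highest in stromal-like, smooth muscle-like and both Enpep classes. Gli2 was at 113 ± 19.7 CPM in stromal-like cells, 105 ± 21.6 CPM in the Enpep/Asb4 cluster and 129 ± 33.5 CPM in smooth muscle-like cells, against 14.1 ± 6.16 CPM in theca-like and 12.6 ± 2.38 CPM in GC-like cells. Gli3 was at 114 ± 18.2 CPM in stromal-like cells, 78.2 ± 14.9 CPM in the Enpep/Asb4 cluster, 47.4 ± 14.3 CPM in theca-like cells and 10.4 ± 5.10 CPM in GC-like cells. Epithelial-like cells (63.2 ± 15.0 CPM) and endothelial-like cells (32.0 ± 13.4 CPM) had Gli3 as well. Smo lay between 35.2 ± 6.47 CPM in endothelial-like and 94.6 ± 25.5 CPM in stromal-like cells in 12 of 16 classes, with 61.0 ± 10.9 CPM in GC-like cells. It was lower in the 4 immune classes, among them macrophage-like (14.4 ± 5.41 CPM) and NK or T-like cells (6.18 ± 3.97 CPM).

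Differences between classes were tested with edgeR on summed UMIs, with the library as a block. Between theca-like and GC-like cells, 5 of the 8 members passed, where 29.1% of 15067 genes passed. Hhip was higher in theca-like cells by 6.05 on the log2 scale (SE 0.19, adjusted p = 4.2e-16), Gli1 by 4.44 (SE 0.27) and Gli3 by 2.33 (SE 0.17). Ihh fell by 5.29 (SE 0.32) and Dhh by 3.26 (SE 0.33). Ptch1 (0.17, SE 0.14, adjusted p = 0.30) and Gli2 (0.26, SE 0.17, adjusted p = 0.20) did not pass, and Smo did not reach the minimum fold (0.39, SE 0.09). Without Fosl2cKO replicate 1, whose theca-like cells had little Cyp17a1, Hhip was at 6.12 and Gli1 at 4.32. All 5 calls held in every alternative that was run.

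Between theca-like and stromal-like cells, 4 members passed, against 24.5% of all genes. Hhip was higher in theca-like cells by 3.61 (SE 0.18), whereas Gli2 fell by 2.96 (SE 0.17) and Gli3 by 1.24 (SE 0.17). The higher Dhh in theca-like cells (1.92, SE 0.53) rested on 44 and 22 UMIs, and NK or T-like cells had a like level (2.15 ± 0.63 CPM). In stromal-like compared with GC-like cells, 6 members passed, where 34.6% of genes did so. Gli1 rose by 5.06 (SE 0.25), Gli3 by 3.58 (SE 0.17), Gli2 by 3.22 (SE 0.15) and Hhip by 2.44 (SE 0.19), and Dhh fell by 5.18 (SE 0.37) and Ihh by 4.90 (SE 0.28).

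Contrasts with the Enpep/Asb4 cluster were added after its levels had been seen. Against GC-like cells 7 members passed, beside 31.3% of all genes, with Hhip higher by 6.94 (SE 0.20), Gli1 by 6.27 (SE 0.24) and Ptch1 by 2.07 (SE 0.14). Against stromal-like cells, where Gli2, Gli3 and Smo did not reach the minimum fold, 3 members passed, beside 10.4% of all genes, and these were Hhip (4.495, SE 0.18), Ptch1 (1.67, SE 0.14) and Gli1 (1.21, SE 0.19). Against theca-like cells, where 19.4% of genes passed, Gli2 (2.91, SE 0.17), Ptch1 (1.91, SE 0.14) and Gli1 (1.83, SE 0.22) were higher and Dhh was lower. Theca-like cells in turn exceeded the Abcb1b/Hao2 cluster in Hhip (5.08, SE 0.20), Gli1 (3.74, SE 0.33), Gli2 (2.75, SE 0.24) and Ptch1 (1.28, SE 0.14), with 14.2% of all genes passing. That contrast was not planned either.

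**Figure D3:**
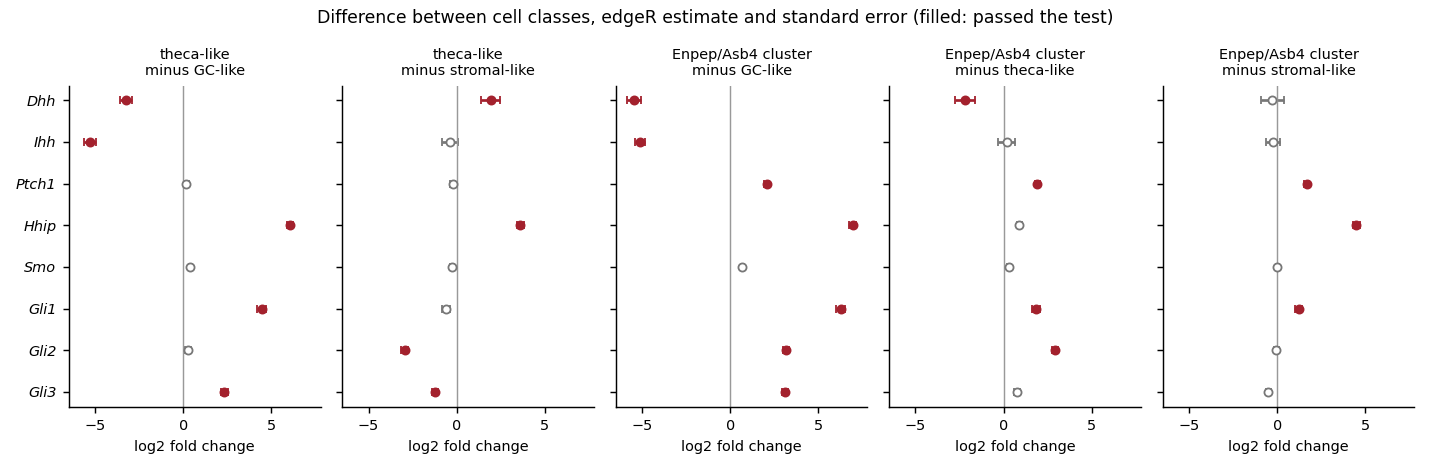
Log2 fold change of the 8 Hedgehog genes between cell classes, as the edgeR estimate with its standard error, with filled points for genes that passed the test. Hhip and Gli1 are higher in theca-like cells and in the Enpep/Asb4 cluster than in GC-like cells, Ihh and Dhh are lower, and Ptch1 separates the Enpep/Asb4 cluster from all 3 other classes.

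Among GC states, 8 of 63 member tests passed in all, among them that of the ligand Ihh in atretic-like GCs, with 5 of 56 among cells over 2000 UMIs. Over all genes, 3.55% to 24.8% passed in a state, so the counts do not set the members apart. Cumulus-like GCs, which surround the oocyte, had Gli3 at 16.2, 45.2, 31.4 and 33.1 CPM and Gli2 at 27.2, 24.8, 39.5 and 24.6 CPM. Both were higher than in the other states (Gli3 by 2.59, SE 0.18, and Gli2 by 1.74, SE 0.19), in a state where 20.3% of genes passed. Mural-like GCs had less Gli2 (4.25 ± 1.21 CPM, log2 fold change -1.44, SE 0.32). Mitotic-like GCs with Amh, found in growing follicles, had more Gli2 (1.05, SE 0.21) and Gli3 (1.03, SE 0.23), just past the minimum fold, beside 5.53% of all genes. Both fell short of it with DESeq2 (0.95 and 0.94) and without Fosl2F/F replicate 1 (0.93 and 0.96), and Gli3 also without Fosl2F/F replicate 2 (0.83). Among cells over 2000 UMIs neither passed (0.78 and 0.80).

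In the small Pbk/Ube2c cluster of 191 GCs, Ptch1 (-1.68, SE 0.30) and Smo (-1.48, SE 0.25) were lower than in the other states, where 24.8% of genes passed and the median of all genes was -0.26. No member passed in the other states, which were growing follicle-like (3.55% of genes), mitotic-like with Inhbb (7.38%), glycolytic antral-like (5.36%) and the Gm35188/Gm15563 cluster of 289 shallow cells (16.6%). Ptch1 was present in each named state, from 92.4 ± 27.4 CPM in mitotic-like GCs with Inhbb to 171 ± 26.0 CPM in cumulus-like GCs. Gli1 was too low in GCs to be tested among the states, with at most 27 UMIs in a state.

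Single cells were compared after each had been thinned to 2000 UMIs, which left out 20.3% of the cells of Fosl2F/F replicate 2 and 4.23% to 6.25% of the others. A Ptch1 UMI was found in 46.8%, 45.9%, 52.3% and 59.97% of Enpep/Asb4 cluster cells (51.2% ± 6.47, and 61.9% to 93.2% before thinning). The share was 49.8% ± 8.28 in the Enpep/Mki67 cluster, 34.1% ± 8.64 in smooth muscle-like, 20.5% ± 4.25 in stromal-like, 20.04% ± 2.63 in GC-like and 19.5% ± 6.68 in theca-like cells. Macrophage-like cells at 1.91% ± 1.03 and NK or T-like cells at 3.0% ± 2.90 give the level of free RNA. Before thinning, the median depth per library was 3626 to 13267 UMIs in the Enpep/Asb4 cluster and 2266 to 8234 UMIs in macrophage-like cells.

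Hhip was found in 28.4% ± 6.44 of Enpep/Asb4 cluster cells and 21.7% ± 8.68 of theca-like cells, against 0.53% ± 0.11 of GC-like and 0.20% ± 0.41 of macrophage-like cells. Gli1 was found in 8.29% ± 1.09 of Enpep/Asb4 cluster cells, 3.46% ± 1.03 of stromal-like cells and 1.67% ± 0.80 of theca-like cells, and its 0.09% ± 0.06 in GC-like cells was at or below the 0.14% ± 0.27 of macrophage-like cells. Of the ligands, Ihh was found in 10.9% ± 1.91 of GC-like cells against 0.16% ± 0.19 of theca-like and 0.81% ± 0.39 of macrophage-like cells. The share of theca-like cells with a Dhh UMI, 0.23% ± 0.16, was likewise within the 0.26% ± 0.52 of macrophage-like cells. On the CPM scale, with all UMIs used, theca-like Dhh (at least 1.64 CPM in each library) lay above the 0.59 ± 0.68 CPM of macrophage-like cells, which came from 4 UMIs, so the Dhh level of theca-like cells was not resolved at this depth.

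**Figure D4:**
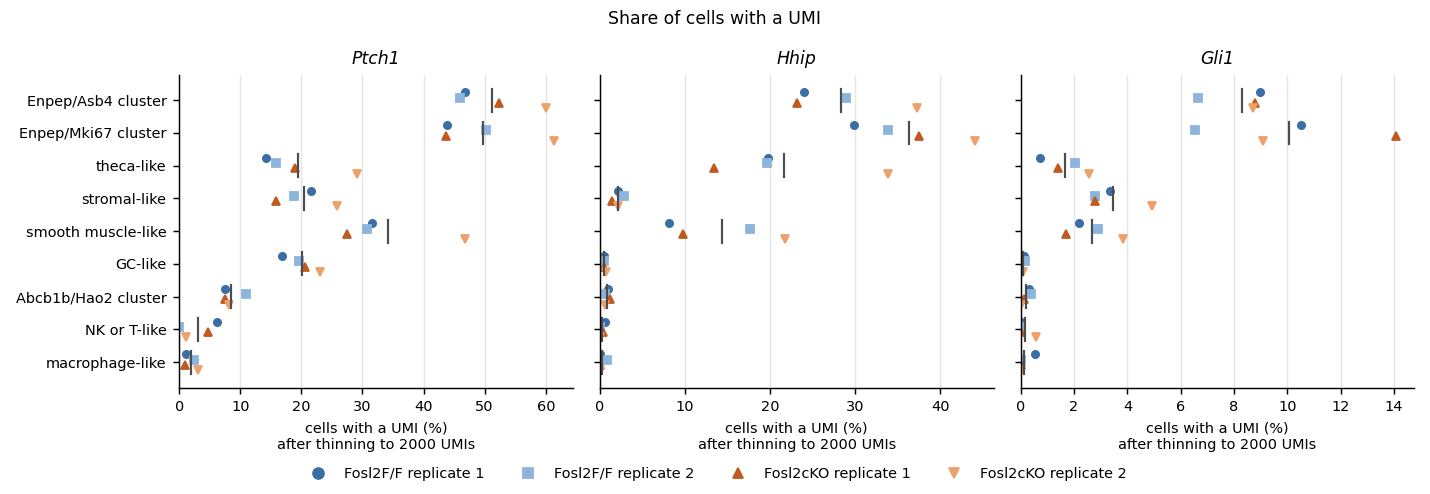
Percent of cells with a UMI of Ptch1, Hhip or Gli1 after thinning each cell to 2000 UMIs, in 9 classes, 1 point per library and a bar at the mean. Macrophage-like and NK or T-like cells mark the level of free RNA, above which both Enpep clusters and theca-like cells lie for Ptch1 and Hhip.

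Within the thinned Enpep/Asb4 cluster, Hhip was found in 33.5% of the cells with a Ptch1 UMI and 22.8% of those without, as means of 4 libraries, and the former was higher in each library (28.2% and 20.3%, 35.4% and 23.4%, 28.7% and 17.2%, 41.9% and 30.4%). In smooth muscle-like cells the shares were 25.9% and 8.10%. Gli1 differed less, at 9.07% of Enpep/Asb4 cluster cells with Ptch1 and 7.57% of those without, and in the other order in Fosl2cKO replicate 2 (8.59% and 8.91%). Hhip was found in 25.8% of Enpep/Asb4 cluster cells with a Gli1 UMI and 28.6% of those without, the former being lower in 3 of 4 libraries. In theca-like cells these shares were 39.1% and 21.2%, the former from 2 to 14 cells a library. In GC-like cells Ptch1 was found in 18.7% of the cells with Ihh and 20.2% of those without, with either order among the libraries. Cells of a library share its free RNA, and these shares are given as a description.

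The libraries labelled Fosl2cKO were then compared with Fosl2F/F by edgeR, with adjusted p below 0.1 and a log2 fold change over 0.25. This was done within GC-like, theca-like and stromal-like cells, the Enpep/Asb4, Enpep/Mki67 and Abcb1b/Hao2 clusters and the GC states. Other classes, such as smooth muscle-like cells, were not tested. None of the 95 tests of members in 15 classes and states passed, and 17 had an unadjusted p below 0.05 (DESeq2 called 7 and had 14 below 0.05). The share of all genes with an unadjusted p below 0.05 is not given here, so the counts at that level do not set the members apart. Among the 17 with edgeR were Dhh in GC-like cells and in 7 states, which are parts of that class and not separate evidence. Over all genes DESeq2 made 1003 calls in 180571 tests, summed over classes and states. Among them were 168 of 17285 genes in GC-like cells and 171 of 13401 in mitotic-like GCs with Inhbb. With edgeR few genes of any kind passed, at 0.00579% of those tested in GC-like cells, 0.0398% in theca-like, 0.0658% in the Enpep/Asb4, 0.0788% in the Enpep/Mki67 and 0.2% in the Abcb1b/Hao2 cluster, and 0.182% in stromal-like cells. In the GC states these shares were 0.0245% in the Gm35188/Gm15563 and 0.0481% in the Pbk/Ube2c cluster, 0.015% in atretic-like, 0.00762% in cumulus-like, 0.00828% in glycolytic antral-like, 0.00803% in growing follicle-like and 0.00777% in mural-like GCs, and 0.00812% and 0.00746% in the mitotic-like states with Amh and Inhbb.

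Dhh was the member that came nearest to a call by adjusted p. In GC-like cells, at 14.2 and 15.4 against 38.0 and 32.3 CPM, its log2 fold change was 1.22 (SE 0.18, unadjusted p = 3.3e-04, adjusted p = 0.315 with edgeR). The value was positive in all 7 states in which Dhh could be tested, from 1.04 to 1.78, with unadjusted p from 5.4e-04 to 0.0018 and adjusted p from 0.26 to 0.61. The states are parts of the GC-like class in the same 4 libraries, so they repeat this comparison. Ptch1 (0.056 to 0.56) and Smo (0.0055 to 0.87) were positive in all 8 states in which they were tested. Gli2 was positive in 4 of 7 states, Gli3 in 2 of 7 and Hhip in 3 of 6. In GC-like cells DESeq2 called Dhh (adjusted p = 1.7e-05), as did edgeR without a filter on low genes (adjusted p = 0.0065). With 1 library left out, the log2 fold change was 1.12 to 1.31. Such a fit assumes that the lone library of a condition varies like the pair of the other, so only its effect size is given. The share of thinned GC-like cells with a Dhh UMI was 2.70% and 3.08% against 8.33% and 6.10% (exact two-sided permutation test, p = 0.333, the smallest that 2 against 2 libraries allow).

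Rhebl1, which overlaps Dhh on the same strand, was at 8.55, 6.64, 7.19 and 7.35 CPM in these cells, and did not move with Dhh. The 12 granulosa markers summed to 15963, 10084, 9263 and 9723 CPM in the same libraries, and Cyp19a1, the gene whose promoter drives the Cre, was at 220, 57.0, 33.5 and 43.5 CPM. Their part in the Dhh difference was not tested.

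The log2 fold change of Ihh in GC-like cells was smaller, at 0.22 (SE 0.21, adjusted p = 1.0), and it was -0.05 without Fosl2cKO replicate 2. Values in the 9 states were positive, from 0.20 to 0.83, with unadjusted p from 0.035 to 0.62. The receiving genes of GC-like cells differed little, with Ptch1 at 103 and 114 against 136 and 145 CPM (0.34, SE 0.16, adjusted p = 1.0) and Smo at 47.3 and 57.3 against 69.6 and 69.9 CPM (0.39, SE 0.16, adjusted p = 1.0). In both genes the libraries did not overlap between the conditions, as was the case for 31.9% of all genes with at least 100 UMIs in GC-like cells, so that 3 of 8 members (Dhh, Ptch1 and Smo) is near that background.

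In theca-like cells, Ptch1, Smo and Gli1 did not overlap, which makes 3 of the 6 members with at least 100 UMIs, beside 31% of all such genes. Gli1, at 4.56 and 9.65 against 14.1 and 16.0 CPM, had a log2 fold change of 1.02 (SE 0.39, unadjusted p = 0.026, adjusted p = 1.0). Ptch1, at 112 and 98.0 against 114 and 214 CPM, had 0.57 (SE 0.34). Hhip had 0.32 (SE 0.42), which became -0.63 without Fosl2cKO replicate 2, the library highest in Hhip. Without Fosl2cKO replicate 1, whose theca-like cells had little Cyp17a1, the values were 1.11 for Gli1, 0.96 for Ptch1 and 0.88 for Hhip, and without Fosl2cKO replicate 2 Ptch1 was at 0.02. Gli1 was at 0.60 without Fosl2F/F replicate 1 and at 1.62 without Fosl2F/F replicate 2.

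In the Enpep/Asb4 cluster, 3 of 6 members (Ptch1, Smo and Gli2) did not overlap, beside 32.2% of all genes. Ptch1 had a log2 fold change of 0.47 (SE 0.27), Smo of 0.50 (SE 0.24), Hhip of 0.32 (SE 0.30) and Gli1 of 0.15 (SE 0.25), each with an adjusted p of 1.0. Ptch1 was at 0.20 without Fosl2cKO replicate 2 and at 0.70 without Fosl2cKO replicate 1. With 1 library left out, Hhip ran from -0.19 to 0.70 and Gli1 from -0.044 to 0.34, so neither kept its direction. In the Enpep/Mki67 cluster Smo, at 48.5 and 60.3 against 90.0 and 108 CPM, had 0.78 (SE 0.24, unadjusted p = 0.0065, adjusted p = 0.50). In stromal-like cells 2 of 6 members (Smo and Gli3) did not overlap, beside 29.7% of all genes, with Smo at 73.9 and 81.7 against 91.6 and 131 CPM (0.50, SE 0.29, and 0.26 without Fosl2cKO replicate 2). In GC-like, theca-like and stromal-like cells and the Enpep/Asb4 cluster, the members that did not overlap were higher in the libraries labelled Fosl2cKO. The shares of all genes count either direction, so they give no background for this agreement. Smo was among these members in each class, and Ptch1 in all but stromal-like cells. Classes of a library also share its free RNA. Elsewhere both orders were found. Higher in the libraries labelled Fosl2cKO was Smo in the Enpep/Mki67 cluster, as given above. In mitotic-like GCs with Amh, Gli2 was lower, at 19.9 and 20.5 against 17.9 and 14.7 CPM. Gli3 there was at 11.2 and 19.1 against 7.41 and 8.85 CPM. Gli2 in atretic-like GCs was at 8.07 and 14.7 against 4.28 and 5.93 CPM. Ptch1 in endothelial-like cells was at 56.3 and 66.8 against 44.8 and 52.9 CPM. These are examples, with no tally and no share of all genes beside them.

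**Figure D5:**
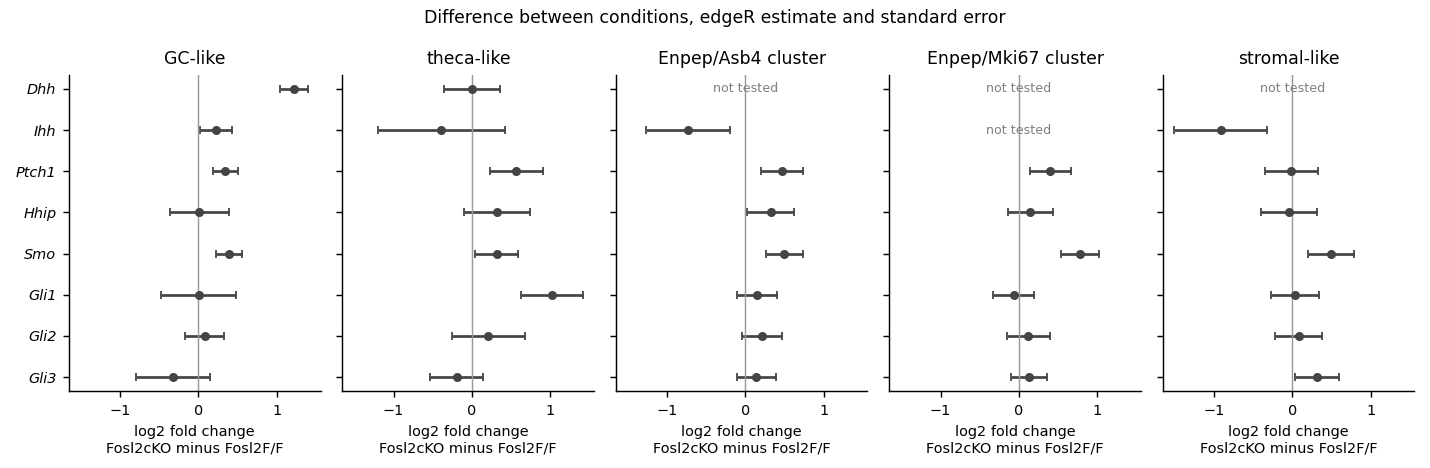
Log2 fold change of the Hedgehog genes between the libraries labelled Fosl2cKO and Fosl2F/F in 5 classes, as the edgeR estimate with its standard error. Dhh in GC-like cells (1.22) and Gli1 in theca-like cells (1.02) lie farthest above 0, and none of the values passed the test.

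Whether the condition acted differently on theca-like and GC-like cells was tested as an interaction. None of the 8 members passed at adjusted p below 0.1, and 0% of 16803 genes did, with edgeR and, for the members, with DESeq2 as well. In simulated counts with a true 2-fold change, the edgeR test found 7% of the changed genes. Most differences of that size would therefore be missed at the simulated spread between libraries, which was fixed and not taken from these genes. One member had an unadjusted p below 0.05 with edgeR and none with DESeq2. This was Dhh (-1.21, SE 0.45, unadjusted p = 0.026), which had 44 UMIs in theca-like cells, and Gli1 followed (1.06, SE 0.47, unadjusted p = 0.053).

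The 38 other genes of the pathway were counted by role. In theca-like compared with GC-like cells, 11 of the 34 genes tested were higher and 4 lower, beside 29.1% of all genes passing. The median log2 fold change of the list was 0.18, against 0.054 over all genes. Of 5 genes for ligand processing and release, 3 were lower and none higher, among them Scube1, which helps to shed the ligand (4.87 ± 2.36 against 31.6 ± 4.97 CPM), and Disp1, which releases it from the sending cell (17.7 ± 4.56 against 56.1 ± 20.7 CPM). Of 5 co-receptors and ligand-binding proteins tested, 4 were higher and none lower, among them Boc (76.2 ± 9.82 against 6.51 ± 1.83 CPM) and the glypican Gpc3 (119 ± 32.1 against 6.31 ± 2.16 CPM). Of 8 response genes 6 were higher, including Ccnd1 (13.3 ± 2.96 against 1.24 ± 0.49 CPM) and Snai1 (15.0 ± 2.76 against 1.34 ± 0.25 CPM). In signal transduction 1 of 11 passed, the ciliary gene Evc2, which was lower (25.9 ± 7.35 against 89.2 ± 13.2 CPM), and of 5 cilium genes 1 passed, Tulp3, which was higher (41.8 ± 2.46 against 21.3 ± 1.66 CPM).

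In the Enpep/Asb4 cluster compared with GC-like cells, 13 of 34 genes were higher and 4 lower, beside 31.3% of all genes passing, and the list median was 0.74, against 0.0040 over all genes. Gpc3 was at 429 ± 42.5 against 6.31 ± 2.16 CPM, Igfbp6 at 235 ± 35.8 against 8.37 ± 2.44 CPM and Ccnd1 at 63.2 ± 5.57 against 1.24 ± 0.49 CPM. Against theca-like cells 11 were higher and 1 lower, beside 19.4% of all genes. The lower one was Cdon, a co-receptor related to Boc (28.3 ± 15.0 against 125 ± 41.7 CPM), and the higher ones included Hhat, the enzyme that palmitoylates the ligand (26.9 ± 3.07 against 11.9 ± 4.61 CPM). Against stromal-like cells 5 were higher and 4 lower, beside 10.4% of all genes, with Mycn (51.7 ± 18.5 against 9.72 ± 1.78 CPM) among the former and Gas1, a co-receptor (11.6 ± 2.66 against 53.9 ± 14.0 CPM), among the latter.

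In stromal-like compared with GC-like cells 13 genes were higher and 5 lower, beside 34.6% of all genes passing. In theca-like compared with stromal-like cells 2 were higher and 9 lower, beside 24.5% of all genes. Cdon was among those higher in theca-like cells (125 ± 41.7 against 22.6 ± 7.26 CPM). Gas1 (5.35 ± 1.14 against 53.9 ± 14.0 CPM), Scube2 (1.26 ± 0.50 against 26.4 ± 11.8 CPM), Igfbp6 (54.6 ± 26.6 against 354 ± 61.3 CPM) and Sfrp1, a secreted Wnt antagonist (37.0 ± 17.1 against 166 ± 83.0 CPM), were lower there. Between theca-like cells and the Abcb1b/Hao2 cluster 8 were higher and 3 lower, beside 14.2% of all genes.

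None of the 412 tests of these 38 genes between the conditions passed with edgeR, and 22 had an unadjusted p below 0.05. The share of all genes at that level is not given here either, so this count does not set the list apart. The lowest adjusted p, 0.27, was that of Sfrp1 in the Enpep/Asb4 cluster, with a log2 fold change of 1.07 (SE 0.25). Sfrp1 also had 1.004 (SE 0.31, adjusted p = 0.49) in the Enpep/Mki67 cluster and 1.01 (SE 0.34, adjusted p = 0.59) in stromal-like cells, and between -0.07 in the Abcb1b/Hao2 cluster and 0.92 in cumulus-like GCs elsewhere.

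The genes whose levels were most like those of each Hedgehog gene were sought over 96 sums, 4 libraries of 24 classes, among 11664 genes. For Ihh they were Fam13a (Pearson r = 0.94), Spin2c, Cnmd, Hsd17b1 and Serpine2, of which Hsd17b1, an estrogen-making enzyme, and Serpine2 were granulosa markers here. For Dhh they were Zfp277 (r = 0.82), Cnmd, Jam2, Csrnp3 and Ihh itself (r = 0.80). Hhip was nearest to Cpz (r = 0.89), Dleu7, Nalcn, Ptprq and Pdgfra, a receptor of mesenchymal cells, and Gli1 to Col1a2 (r = 0.92), Egflam, Prtg, Lama2 and Ptprq. Ptch1 was nearest to Zfp618 (r = 0.86), Wasf1, Thra, Nectin3 and Ptk7, and Smo to Pxdn (r = 0.89), Zfp618, Zfp30, Nectin3 and Rhobtb3. Gli2 was nearest to Mrc2 (r = 0.84), Dixdc1, Dact1, Kcnt2 and Adamts12, and Gli3 to Bicc1 (r = 0.86), Plekhh2, Sox9, Sorcs2 and Adcy2. Among the members themselves, Hhip and Gli1 gave r = 0.81 and Hhip and Ihh r = -0.37. Sums of the same library share its depth and free RNA, and the states are parts of the GC-like class, so these values are descriptions.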

How the data were processed

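Single-cell RNA-seq libraries (10x Genomics 3′ v3) of ovaries of 2 Fosl2F/F and 2 Fosl2cKO samples were used. The authors deposited matrices of raw UMI counts per gene and barcode, made with Cell Ranger on GRCm38. The matrix headers and the methods name different Cell Ranger versions, and whether CellBender, which removes free RNA and which the methods name, had been applied to the deposited counts is not given in the sources used here. The submitters' notes also list Seurat 4.1.0.

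A barcode was kept as a cell when it had 500 genes or more and more than 1000 UMIs, with mitochondrial UMIs below 10% and hemoglobin UMIs below 0.1%, and the highest doublet scores (Scrublet in scanpy 1.11.5), 0.8% per 1000 cells, were removed, which took 412 to 4723 cells a library. Cells were normalized and integrated with sctransform 0.4.2 and Seurat 5.3.0, and clustered without the 8 Hedgehog and 38 pathway genes. Clusters were named when a marker list scored at least 0.2 with a lead of 0.1 and 3 markers above 0.25 of the highest level. The name theca-like also required Cyp17a1 at 0.25 of its highest level or more. The Ces2a/Bhmt cluster missed this, although its theca score was 0.588, like that of theca-like cells. A separate list held Enpep, Asb4, Abcb1b, Hao2, Cyp11a1 and Hsd3b1. Clusters whose leading genes or score went more with it than with their best other list were named after such genes. These naming limits were chosen with the clusters in view.

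UMIs were summed per class and library and tested with edgeR 4.0.16 (quasi-likelihood, TMM) in R 4.3.3, with Benjamini-Hochberg adjustment over all genes passing edgeR's filter on low counts. Every class or state tested had at least 20 cells in each library. Tests between conditions covered GC-like, theca-like and stromal-like cells, the Enpep/Asb4, Enpep/Mki67 and Abcb1b/Hao2 clusters and the GC states. Other classes of that size, among them the Ces2a/Bhmt cluster and smooth muscle-like cells, were not tested. Conditions were called at adjusted p below 0.1 and a log2 fold change over 0.25, classes and GC states at adjusted p below 0.05 and over 1. DESeq2 1.42.0 was an alternative. CPM are UMIs scaled by all UMIs of a class in a library, and ± gives the SD over libraries. Shares were compared after thinning to 2000 UMIs with an exact permutation test. The tests were run on simulated data first, with a spread between libraries fixed at 0.03 (as a dispersion) and not estimated from these data. Only genes averaging over 20 UMIs were changed. Of genes given a 2-fold change, the condition tests of GC-like, theca-like, stromal-like and Enpep/Asb4 cells found 54% to 65.5%. The interaction test found 7%. These rates hold for the simulated spread only. All 8 members are named, and of the pathway list the 2 genes of each role with the largest change among those with at least 5 CPM (not all of these are reported here). Likeness is Pearson's r of log2(CPM + 1). The members and lists were chosen with earlier results of these data known.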

Additional observations from a re-analysis of the deposited data

Results flagged for a closer look

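Some classes outside those compared also held Hedgehog RNA above the level of macrophage-like cells. Smooth muscle-like cells had 309 CPM of Ptch1, 135 CPM of Hhip and 21.3 CPM of Gli1 as means of the libraries. Pericyte-like cells had 148 CPM of Ptch1 and 13.7 CPM of Gli1. Endothelial-like cells had 10.2 CPM of Dhh from 111 UMIs. Gli2 in the Ces2a/Bhmt cluster was at 147.7 CPM in Fosl2cKO replicate 2, against 0, 15.05 and 17.6 CPM in Fosl2F/F replicates 1 and 2 and Fosl2cKO replicate 1. In luteal-like cells Gli2 was at 3.28 and 2.37 CPM in Fosl2F/F and at 77.8 and 227.8 CPM in the libraries labelled Fosl2cKO, which had 15 and 33 such cells. These differences between libraries were not tested.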

How the results depend on the processing

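Of 787 alternative values of 58 single results, 768 kept their direction and their side of the threshold, 10 fell short of it, 4 passed it and 5 changed direction. The 5 were Ihh in GC-like cells (-0.052 to 0.45 over the libraries left out), Hhip in theca-like cells (-0.63 to 0.88) and in the Enpep/Asb4 cluster (-0.19 to 0.70), each below 0 without Fosl2cKO replicate 2, and Gli1 in the Enpep/Asb4 cluster (-0.044 to 0.34), below 0 without Fosl2F/F replicate 2 or Fosl2cKO replicate 1 (-0.032). The cause was not tested. Between conditions, 0 of 95 member tests passed, against 1 with doublets kept, 7 with DESeq2, 8 with no gene filter and 0 to 6 when a library was left out. With the replicate number as a block 1 passed, and with the numbers crossed 9. Over all genes, the calls summed over classes were 88 of 180571 tests, 218 of 191349 with doublets kept and 3712 of 319729 with no gene filter. Of the 180571 tests, 1003 passed with DESeq2, 277 with the block and 3157 with the numbers crossed. The deviations of same-numbered samples correlated at -0.16, -0.21, -0.09 and -0.16 in GC-like, theca-like and stromal-like cells and the Enpep/Asb4 cluster, so these samples did not deviate alike. With 2 libraries per condition, this cannot decide whether the numbers pair the samples. Among GC states 8 tests passed and 7 to 9 without a library. With cells over 2000 UMIs 5 passed, since the Pbk/Ube2c cluster (Ptch1 and Smo) was not tested, Gli2 and Gli3 in mitotic-like GCs with Amh fell short, and Ihh in mitotic-like GCs with Inhbb passed. The share of Enpep/Asb4 cluster cells with a Ptch1 UMI was 81.1% not thinned and 70.1% thinned to 4000 UMIs. Depth limits values from few UMIs, such as the 44 of Dhh in theca-like cells.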
